A study of Mus musculus with 8 samples.

Results

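The genes described here are the chemokine ligands and receptors of the CC and CXC families, measured in the duodenum of Zeb2+/- mice and of WT mice. They were chosen by name and biotype alone: protein-coding genes whose symbol is Ccl, Cxcl, Ccr or Cxcr followed by a number. The rule took 58 of the 54532 genes in the deposited table, under 52 symbols, of which 42 entries are ligands and 16 are receptors. Chemokines are small secreted proteins that draw leukocytes along gradients, and they act through G protein-coupled receptors on the cells they attract. In the small intestine some are made steadily by the epithelium, where they bring T cells and antibody-secreting cells to the mucosa. Others are laid down by stromal cells that build lymphoid follicles, or are induced by interferons and inflammation.

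The Zeb2+/- mice carry 1 disrupted copy of Zeb2, a zinc finger repressor that binds CACCT-containing E-boxes, and the WT mice (Zeb2+/+) carry both intact copies. Each genotype had 4 libraries of bulk duodenal RNA. The sources used here do not give strain, age, sex, the exons removed or any tissue restriction of the knockout. They also do not say whether each library came from 1 animal, so p-values reflect only how far these samples spread, which may be partly technical. Zeb2 itself (chromosome 2, 44983632 to 45117395, minus strand, GRCm38) had 0.488, 0.173, 0.197 and 0.344 FPKM in Zeb2+/- libraries 1 to 4, against 0.991, 0.760, 1.19 and 0.829 FPKM in WT libraries 1 to 4. FPKM is the authors' fragment count scaled by gene length and by a total for each library, which differed from the reads assigned to genes by a factor of unknown origin. All Zeb2+/- values lay below all WT values, although reads outside the removed exons do not report the allele. Zeb2 was fitted with all 27850 genes above 0 in any library, because its mean level is low, and its log2 fold change on the log2(FPKM + 1) scale was -0.58 (SE 0.12, limma adjusted p = 0.0772). The Zeb2+/- mean was 31.9% of the WT mean, and voom on rebuilt reads gave a log2 fold change of -1.74 (adjusted p = 0.0350).

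Between 13579347 and 17137417 reads were assigned to genes per library. WT libraries resembled each other more (correlation of log2 values over genes 0.972 to 0.981) than Zeb2+/- libraries did (0.902 to 0.971), with Zeb2+/- libraries 1 and 3 the least alike. Enterocyte markers, which define the duodenal lining, summed to 16004 to 49373 FPKM in Zeb2+/- libraries and to 25296 to 37046 FPKM in WT libraries, with 12 of 12 tested, 0 called changed by limma and by voom, and 1 at an unadjusted p below 0.05. Markers of the exocrine pancreas, which lies against the duodenum, summed to 0.126 to 8.98 FPKM in Zeb2+/- libraries and to 178.3 to 2923 FPKM in WT libraries, and 10 of 11 tested were called lower by limma and 0 by voom. The part of that difference in the chemokine results was not tested.

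Of the 58 entries, 25 had a mean level of at least 1 FPKM and entered limma's fit of log2(FPKM + 1) over 12190 genes, 17 ligands and 8 receptors. A gene was called changed at a Benjamini-Hochberg adjusted p below 0.05 over all 12190 genes. Of the 25, 6 were called and all 6 were lower in Zeb2+/-: the ligands Ccl11, Cxcl14 and Cxcl9 and the receptors Ccr10, Ccr1 and Cxcr6. Those 6 are 24.0% of the tested chemokine genes, beside 3.24% called among all tested genes (2.77% lower and 0.468% higher). The called Ccr10, Cxcl9, Cxcr6 and Ccr1 had Zeb2+/- means below 1 FPKM (0.270, 0.798, 0.823 and 0.945) and reached the minimum through WT. So did the uncalled Ccl22 and Cxcr3, whereas Cxcr5 and Ccr6 had WT means below 1 FPKM and reached it through Zeb2+/-. The counts, shares and median given here include these genes and so lean in part on the minimum. No chemokine gene was called higher by limma or by voom, a fit on rebuilt reads that called 5 of the 25 lower (beside 1.53% of all tested genes lower and 0.123% higher), and 1 gene, Ccl25, had a positive difference at an unadjusted p below 0.05. In all, 11 of the 25 had an unadjusted p below 0.05, beside 18.9% of all tested genes. The median log2 fold change of the 25 was -0.45, against 0.00238 over all tested genes, with 17 of the 25 below 0, beside 49.7% of all tested genes. In 9 of the 25 every Zeb2+/- library lay below every WT library, beside 6.87% of all tested genes, and in 1, Ccl25, every Zeb2+/- library lay above, beside 7.65%. Counts within gene groups and marker lists, above and below, are to be read beside these shares of all tested genes.

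**Figure D1:**
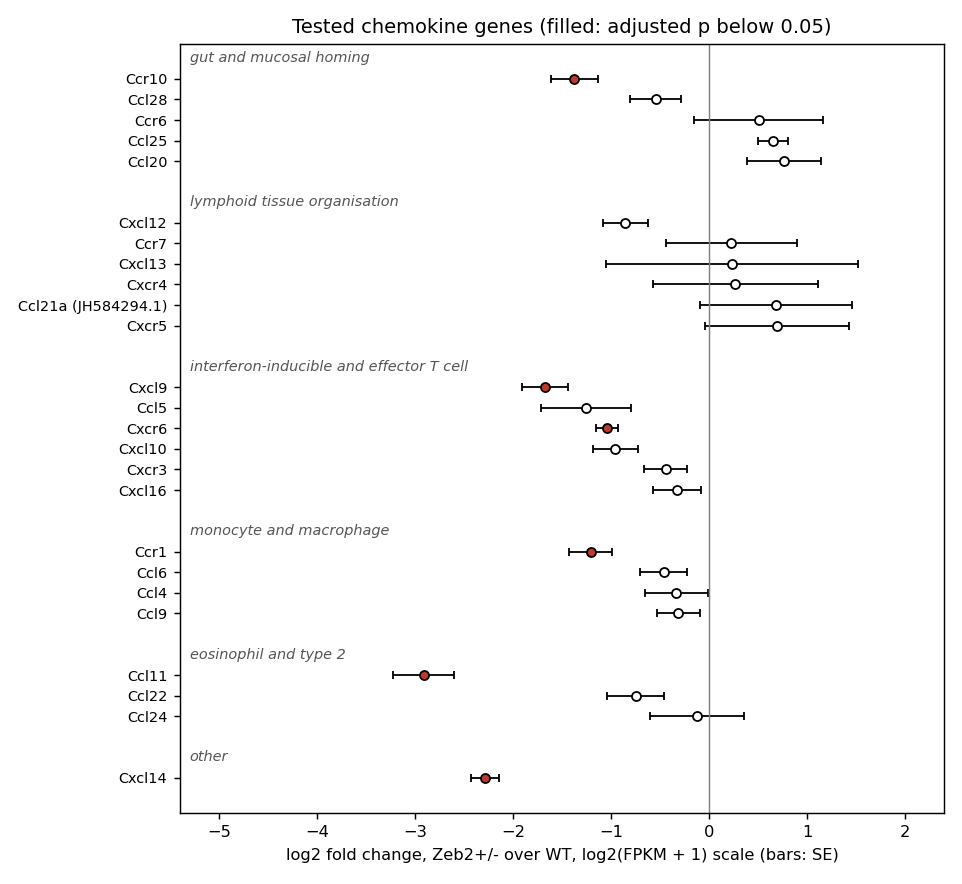
Log2 fold change of Zeb2+/- over WT with limma's SE for the 25 tested chemokine genes, on the log2(FPKM + 1) scale, grouped by what the genes are known for. The 6 filled points, all left of 0, are the genes with an adjusted p below 0.05, and the widest bars belong to the genes of lymphoid tissue.

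The promoter sequences below belong to the called genes for which the RefSeq table (GRCm38.p6) holds a window. Also printed are Cxcl10 and Ccl28, which were not called, but not other uncalled members such as Ccl25, Cxcl12 and Ccr9. The sequences are shown because Zeb2 is a DNA-binding repressor and because Cxcl9 and Cxcl10 are known as interferon-induced genes. Each is the 250 bases before an annotated start, 5′ to 3′ on the gene's own strand. Capitals mark matches, on either strand, to CACCT or CACCTG (the ZEB half-site and E-box), GGGNTTTCC or GGGNNTTTCC (kappaB-like), TTCNNNGAA (STAT-like), TTTCNNTTTC (interferon response core) and TATAAA.
Cxcl14, chr13:56296552-56296801, minus strand: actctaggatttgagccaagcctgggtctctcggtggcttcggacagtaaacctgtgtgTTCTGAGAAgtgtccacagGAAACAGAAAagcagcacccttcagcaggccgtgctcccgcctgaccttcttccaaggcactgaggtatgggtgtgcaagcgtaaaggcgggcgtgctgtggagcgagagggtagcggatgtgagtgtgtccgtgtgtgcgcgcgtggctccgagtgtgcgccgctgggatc
Cxcl9, chr5:92328080-92328329, minus strand: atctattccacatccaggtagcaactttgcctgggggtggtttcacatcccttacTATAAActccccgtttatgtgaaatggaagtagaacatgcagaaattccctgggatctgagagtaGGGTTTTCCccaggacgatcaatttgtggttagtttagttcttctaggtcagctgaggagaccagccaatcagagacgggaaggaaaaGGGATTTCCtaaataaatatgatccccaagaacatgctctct
Cxcl10, chr5:92348890-92349139, minus strand: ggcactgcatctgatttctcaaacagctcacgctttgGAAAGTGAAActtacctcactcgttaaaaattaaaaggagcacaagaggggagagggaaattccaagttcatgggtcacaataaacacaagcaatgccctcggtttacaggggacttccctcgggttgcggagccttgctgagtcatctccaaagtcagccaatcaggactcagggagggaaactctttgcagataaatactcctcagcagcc
Cxcr6, chr9:123806227-123806476, plus strand: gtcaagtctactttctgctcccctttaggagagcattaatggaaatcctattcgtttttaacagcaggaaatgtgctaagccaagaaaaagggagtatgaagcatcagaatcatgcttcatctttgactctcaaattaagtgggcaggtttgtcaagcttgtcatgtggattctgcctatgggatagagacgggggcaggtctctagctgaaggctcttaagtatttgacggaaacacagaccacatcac
Ccr1, chr9:123968693-123968942, minus strand: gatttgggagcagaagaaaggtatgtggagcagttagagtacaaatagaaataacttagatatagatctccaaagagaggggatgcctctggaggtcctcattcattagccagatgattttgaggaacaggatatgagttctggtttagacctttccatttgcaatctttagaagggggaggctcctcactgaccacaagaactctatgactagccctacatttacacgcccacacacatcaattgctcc
Ccl28, chr13:119623569-119623818, plus strand: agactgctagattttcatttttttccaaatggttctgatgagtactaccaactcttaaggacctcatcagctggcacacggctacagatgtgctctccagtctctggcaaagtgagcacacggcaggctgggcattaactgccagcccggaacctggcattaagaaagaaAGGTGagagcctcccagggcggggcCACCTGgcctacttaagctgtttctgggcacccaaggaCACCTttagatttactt
In the Cxcl14 window TTCNNNGAA began 191 bases and TTTCNNTTTC 172 bases before the start. The Cxcl9 window held GGGNTTTCC at 130 and at 42 bases and TATAAA at 195 bases, and the Cxcl10 window held TTTCNNTTTC at 213 bases. No searched motif was in the Cxcr6 or Ccr1 window. CACCT was also absent from the Cxcl14, Cxcl9 and Cxcl10 windows, so no called gene with a window held it. Those genes are only Cxcl14, Cxcl9, Cxcr6 and Ccr1, too few to compare with the 46% of all windows that held CACCT. Ccl28, whose product meets the receptor Ccr10, held CACCT at 80, 55 and 17 bases, the match at 55 being part of CACCTG. Windows were found for 37 of the 52 symbols, 44 windows in all because some genes have several starts. Ccl27a and Ccl27b, near-identical copies, have several windows each, and most of these share the same CACCT matches. The shares below therefore count some sequence more than once. CACCTG was in 8 of the 44 (18.2%) and in 17.2% of all 32851 windows in the table, and CACCT, which CACCTG contains, was in 45.5% of them and in 46% of all. GGGNNTTTCC was in 6 of the 44 (13.6%), against 1.41% of all windows, with Ccl20, Ccl9, Ccr3, Cxcl1, Cxcl2 and Cxcl3 holding it, none of them among the 6 called genes. Cxcl1, Cxcl2 and Cxcl3 lie near each other on chromosome 5 and share the match GGGAATTTCC, so the 6 windows are not independent of each other. GGGNTTTCC was in 3 (6.82%), against 1.46% of all windows, TTCNNNGAA in 3 (6.82%), against 7.02%, TTTCNNTTTC in 3 (6.82%), against 2.98%, and TATAAA in 10 (22.7%), against 12.4%. A match is a run of letters and not a shown binding site, and Ccl11 and Ccr10 are not in the table.

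Among the genes of eosinophil and type 2 recruitment, Ccl11 (eotaxin, the main attractant of eosinophils to the gut wall) had the largest fall of all 25 tested. Ccl11 (ENSMUSG00000020676, chromosome 11, 82057823 to 82062955, plus strand) had 0.894, 2.21, 0.0774 and 0.937 FPKM in Zeb2+/- libraries 1 to 4, against 15.4, 9.70, 11.7 and 17.4 FPKM in WT libraries 1 to 4. The highest Zeb2+/- library was far below the lowest WT library. Mean levels were 1.03 ± 0.880 FPKM in Zeb2+/- and 13.5 ± 3.48 FPKM in WT (SD, n = 4 each), so the Zeb2+/- mean was 7.60% of the WT mean (log2 fold change -2.91, SE 0.31, limma adjusted p = 0.00143). The call rested on 59 reads in Zeb2+/- and 856 reads in WT. In bulk tissue, fewer cells that make a transcript and less of it per cell cannot be told apart, here and for every gene below.

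Ccr3, the eotaxin receptor of eosinophils, had no read in any of the 4 Zeb2+/- libraries, against 0.669, 0.0570, 0.164 and 0.403 FPKM in WT libraries 1 to 4. With 62 WT reads and a floor of 3 reads over the Zeb2+/- libraries, it was at least 19.1-fold lower in Zeb2+/-. This counting bound covers counting error only: limma did not pass Ccr3 in the fit of all genes (adjusted p = 0.305), whereas voom did (adjusted p = 0.00575). Other genes of the group differed less. Ccl24, eotaxin-2, had 3.16, 6.49, 17.3 and 4.58 FPKM in Zeb2+/- libraries, against 3.23, 7.34, 11.3 and 9.38 FPKM in WT libraries. Its ranges overlapped widely, with a log2 fold change of -0.12 (limma adjusted p = 0.922) that turned positive without Zeb2+/- library 1 or 4 or WT library 3 (0.16, 0.020 and 0.070). Ccl22, a dendritic cell product that binds Ccr4 on type 2 and regulatory T cells, had 1.69, 0.267, 0.180 and 1.54 FPKM in Zeb2+/- libraries, against 1.91, 1.92, 1.75 and 2.51 FPKM in WT libraries. The groups did not overlap, but Zeb2+/- libraries 1 and 4 came close to WT and the limma adjusted p was 0.208. Ccl17, the other ligand of Ccr4, was below 1 FPKM on average, with 9 reads in Zeb2+/- and 36 in WT.

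Of 10 eosinophil and neutrophil markers 3 were tested and 1, the neutrophil gene Retnlg, was called lower by limma, with 0 called by voom. Epx and S100a9 had no read in any Zeb2+/- library and none in 3 and 2 of the 4 WT libraries, and Mpo had none in all 8. The summed level of all 10 markers was 3.70 to 5.13 FPKM in Zeb2+/- and 6.67 to 9.19 FPKM in WT. The eosinophil surface gene Siglecf had 1.97, 2.89, 2.91 and 2.60 FPKM in Zeb2+/- libraries, against 3.02, 2.29, 3.60 and 2.54 FPKM in WT libraries, and the groups overlapped. Siglecf had the largest limma p of the 3 tested markers, whose median log2 fold change was -0.51. Prg2, the remaining tested marker, was not called. Of 3 tested mast cell markers 2 were called lower by limma and 0 by voom, the 2 being the proteases Mcpt1 and Mcpt2, with sums over the list of 1.71 to 3.75 FPKM in Zeb2+/- and 4.65 to 8.71 FPKM in WT. The part of these cells in the Ccl11 and Ccr3 differences was not tested.

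Cxcl14, a chemokine of healthy epithelium and stroma outside the interferon and lymphoid groups, had the smallest adjusted p of the 25. Cxcl14 (ENSMUSG00000021508, chromosome 13, 56288643 to 56296551, minus strand) had 2.06, 1.36, 1.33 and 1.84 FPKM in Zeb2+/- libraries 1 to 4, against 13.5, 9.39, 12.5 and 12.3 FPKM in WT libraries 1 to 4. Both groups were tight and far apart. The means were 1.65 ± 0.361 FPKM in Zeb2+/- and 11.9 ± 1.78 FPKM in WT (SD, n = 4 each), and the Zeb2+/- mean was 13.8% of the WT mean (log2 fold change -2.29, SE 0.14, limma adjusted p = 0.000226).

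The summed level of fibroblast and reticular stroma markers was lower in every Zeb2+/- library than in any WT library. Of 13 tested stromal markers 6 were called lower by limma (Col3a1, Col6a1, Col6a2, Pdgfra, Col14a1 and Pdgfrb) and 4 by voom, their median log2 fold change was -1.11, and their summed level was 36.7 to 94.7 FPKM in Zeb2+/- and 113.6 to 161.2 FPKM in WT. Of 11 tested endothelial markers 8 were called lower by limma and 7 by voom, with sums of 9.40 to 35.7 FPKM in Zeb2+/- and 80.2 to 95.7 FPKM in WT. Of 9 tested markers of Paneth cells and the crypt base, 5 were called lower by limma and by voom (Lyz1, Defa22, Itln1, Ang4 and Mmp7), with a median log2 fold change of -2.22 and sums of 248.7 to 483.1 FPKM in Zeb2+/- and 1216 to 2242 FPKM in WT. The stem cell markers of that list (Lgr5, Olfm4, Ascl2 and Smoc2) were not called by either fit. Smooth muscle markers lay on the other side, with a median of 0.67 and sums of 282.6 to 692.4 FPKM in Zeb2+/- and 222.1 to 282.5 FPKM in WT. Among these, limma and voom called 0 of 8 tested, and 5 had an unadjusted p below 0.05 in limma, beside 18.9% of all tested genes. Their part in the Cxcl14 and Ccl11 differences was not tested.

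**Figure D2:**
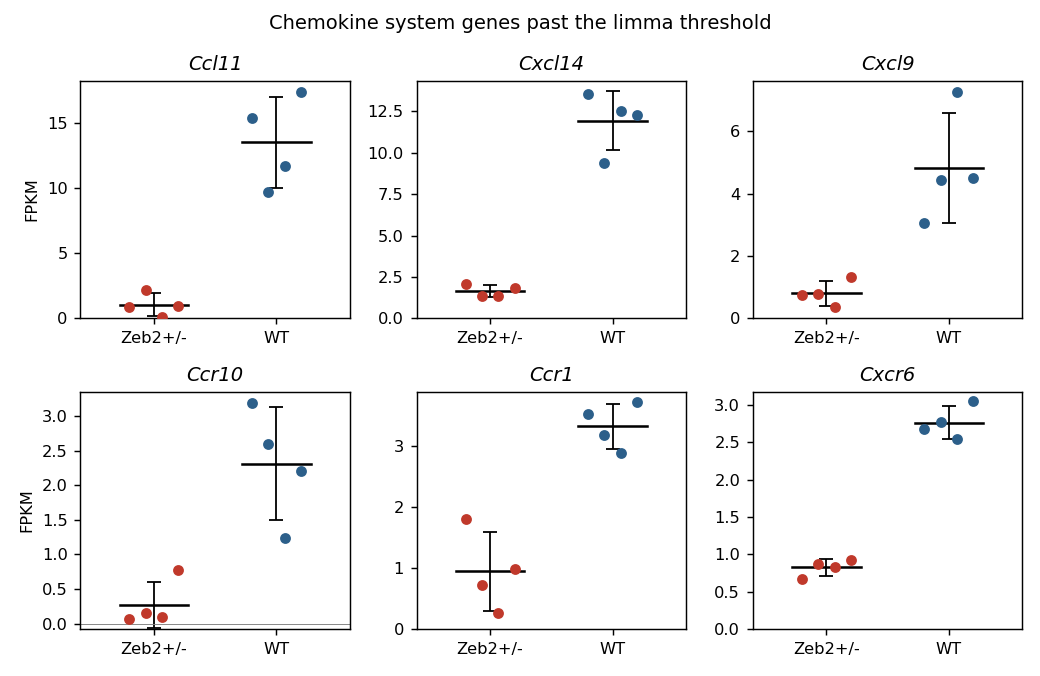
FPKM of the 6 called chemokine genes in each library (points), with the group mean and SD (bars, n = 4 each). In each panel all Zeb2+/- points on the left lie below all WT points on the right.

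The interferon-inducible and effector T cell genes lay mostly below WT. Of 6 tested, 2 were called lower by limma, beside 2.77% of all tested genes. The median log2 fold change of the 6 was -1.0. Cxcl9, an interferon-gamma-induced ligand of Cxcr3, is the called ligand of this group. Cxcl9 (ENSMUSG00000029417, chromosome 5, 92321347 to 92328079, minus strand) had 0.749, 0.763, 0.361 and 1.32 FPKM in Zeb2+/- libraries 1 to 4, against 3.06, 4.43, 7.27 and 4.51 FPKM in WT libraries 1 to 4. The groups did not overlap, and WT library 3 was the highest. Its mean was 0.798 ± 0.394 FPKM in Zeb2+/- and 4.82 ± 1.77 FPKM in WT (SD, n = 4 each), 16.6% of the WT mean (log2 fold change -1.67, SE 0.23, limma adjusted p = 0.00554).

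Cxcl10, the neighbouring Cxcr3 ligand, missed the threshold. It had 1.10, 0.983, 1.90 and 2.39 FPKM in Zeb2+/- libraries, against 2.36, 4.66, 4.73 and 4.32 FPKM in WT libraries. The groups touched, because Zeb2+/- library 4 and WT library 1 were almost equal (log2 fold change -0.96, SE 0.23, limma adjusted p = 0.0647). Without WT library 1 it passed, at a limma adjusted p of 0.0386. Cxcr3, the receptor of both, had 1.24, 0.665, 0.193 and 1.17 FPKM in Zeb2+/- libraries, against 1.69, 1.29, 1.55 and 1.12 FPKM in WT libraries, and overlapped (limma adjusted p = 0.302). Cxcl10 overlaps Art3, and with the strand setting of the counting not given, reads of overlapping genes cannot be told apart. Ccl6, Cxcl16, Cxcr5, Ccr9 and Ccl2 also overlap other genes.

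Cxcr6, a receptor of tissue-resident and intraepithelial T cells, was called lower, by a like amount in every library. Cxcr6 (ENSMUSG00000048521, chromosome 9, 123806475 to 123811760, plus strand, overlapping Fyco1 on the other strand) had 0.668, 0.871, 0.824 and 0.929 FPKM in Zeb2+/- libraries 1 to 4, against 2.68, 2.77, 2.54 and 3.06 FPKM in WT libraries 1 to 4. Both groups spanned less than 1 FPKM and did not overlap. The means were 0.823 ± 0.112 FPKM in Zeb2+/- and 2.76 ± 0.218 FPKM in WT (SD, n = 4 each), 29.8% of the WT mean (log2 fold change -1.05, SE 0.11, limma adjusted p = 0.00131). Its membrane-bound ligand Cxcl16 had 6.41, 9.41, 15.2 and 7.72 FPKM in Zeb2+/- libraries, against 10.9, 10.4, 15.9 and 10.7 FPKM in WT libraries. Library 3 was the highest in both groups and the ranges overlapped (limma adjusted p = 0.514).

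Ccl5, a T cell and monocyte attractant made in quantity by effector and intraepithelial T cells, was the most abundant of the group. It had 8.29, 46.7, 41.1 and 21.8 FPKM in Zeb2+/- libraries 1 to 4, against 62.3, 59.3, 67.0 and 52.3 FPKM in WT libraries 1 to 4. All Zeb2+/- libraries lay below all WT libraries, but they spread more than 5-fold among themselves, with library 1 the lowest. The log2 fold change was -1.26 (SE 0.46, limma adjusted p = 0.193).

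Markers of T cells and intraepithelial lymphocytes moved in part with these genes. Of 15 tested, 3 were called lower by limma (Itgae, Cd160 and Cd3e) and 2 by voom (Itgae and Cd160), the median log2 fold change was -0.49, and sums were 137.1 to 289.5 FPKM in Zeb2+/- and 252.4 to 303.5 FPKM in WT, overlapping. Itgae, the integrin chain that holds T cells at the epithelium, had 1.55, 3.96, 2.47 and 2.52 FPKM in Zeb2+/- libraries, against 8.21, 9.10, 8.62 and 7.72 FPKM in WT libraries, and all Zeb2+/- values were lower. Cd8a overlapped between groups (limma adjusted p = 0.235). How far T cell number enters the Cxcr6, Cxcl9 and Ccl5 values was not tested.

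Of the monocyte and macrophage genes, 1 of 4 tested was called lower by limma, beside 2.77% of all tested genes. Ccr1, a receptor of monocytes, macrophages and granulocytes (ENSMUSG00000025804, chromosome 9, 123962124 to 123968692, minus strand), had 1.80, 0.719, 0.266 and 0.991 FPKM in Zeb2+/- libraries 1 to 4, against 3.53, 3.18, 2.90 and 3.73 FPKM in WT libraries 1 to 4. No Zeb2+/- library reached the WT range, although library 1 was well above the other Zeb2+/- libraries. The means were 0.945 ± 0.646 FPKM in Zeb2+/- and 3.33 ± 0.369 FPKM in WT (SD, n = 4 each), 28.3% of the WT mean (log2 fold change -1.21, SE 0.22, limma adjusted p = 0.0209). This call is the least stable of the 6: it was lost in 7 of 15 alternatives, with limma or voom adjusted p of 0.0577 to 0.0889.

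Ccl6 and Ccl9 are ligands of Ccr1 in mouse, as is Ccl5. Ccl6 had 17.0, 35.0, 34.7 and 28.5 FPKM in Zeb2+/- libraries, against 36.2, 30.2, 44.1 and 46.8 FPKM in WT libraries (limma adjusted p = 0.340). Ccl9 had 5.10, 4.16, 2.09 and 4.71 FPKM in Zeb2+/- libraries, against 5.90, 5.61, 3.73 and 5.15 FPKM in WT libraries (limma adjusted p = 0.496). Both overlapped between the groups. Ccl4, a ligand made by macrophages and T cells, had 0.326, 3.35, 1.01 and 0.827 FPKM in Zeb2+/- libraries, against 1.61, 1.41, 1.86 and 2.0 FPKM in WT libraries, and Zeb2+/- library 2 was the highest of all 8 (limma adjusted p = 0.625).

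Below the minimum level, Ccl8, a macrophage product, had no read in the 4 Zeb2+/- libraries, against 0.779, 0.973, 0.450 and 0.272 FPKM in WT libraries. With 19 WT reads it was at least 5.84-fold lower in Zeb2+/- at the floor of 3 reads (limma adjusted p = 0.0720 and voom adjusted p = 0.0146 in the fits of all genes). Ccr2, the receptor by which blood monocytes enter tissue, had 0.215, 0.0393, 0.0372 and 0.104 FPKM in Zeb2+/- libraries, against 0.324, 0.395, 0.216 and 0.442 FPKM in WT libraries. Zeb2+/- library 1 lay just under the lowest WT library, and limma did not pass it (adjusted p = 0.251). Ccl2, Ccl7 and Ccl12, the ligands of Ccr2, had 11 to 19 reads each in Zeb2+/- and 15 to 28 in WT.

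The summed level of macrophage and dendritic cell markers was lower in every Zeb2+/- library than in any WT library. Of 12 tested, 7 were called lower by limma (C1qb, C1qc, Tyrobp, Csf1r, Adgre1, Itgax and Cd209a) and 5 by voom, with a median log2 fold change of -1.69 and sums of 80.0 to 98.0 FPKM in Zeb2+/- and 190.9 to 211.3 FPKM in WT. The part of macrophage number in the Ccr1, Ccl8 and Ccr2 values was not tested.

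The gut and mucosal homing genes went in different directions. Ccl25, the ligand by which small intestinal epithelium brings in Ccr9-bearing lymphocytes, was the most abundant ligand on average over the 8 libraries, with Ccl5 above it in WT libraries 1 and 3. It had 112, 89.3, 125 and 88.9 FPKM in Zeb2+/- libraries 1 to 4, against 59.2, 65.2, 64.2 and 73.0 FPKM in WT libraries 1 to 4. The groups did not overlap. The means were 104 ± 17.7 FPKM in Zeb2+/- and 65.4 ± 5.72 FPKM in WT (SD, n = 4 each), with a log2 fold change of 0.65 (SE 0.15) and a limma adjusted p of 0.0612, short of the threshold. None of the 15 alternatives brought it past the threshold (adjusted p 0.0554 to 0.204). Ccl25 lies on chromosome 8 (4325210 to 4360020, plus strand) and overlaps Elavl1.

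Ccr9, the receptor for Ccl25, stayed below the minimum level. It had 0.456, 0.526, 0.245 and 0.494 FPKM in Zeb2+/- libraries, against 0.905, 1.01, 0.635 and 0.839 FPKM in WT libraries. All Zeb2+/- values were below all WT values, the opposite side from its ligand, and limma did not pass it (adjusted p = 0.244 in the fit of all genes).

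**Figure D3:**
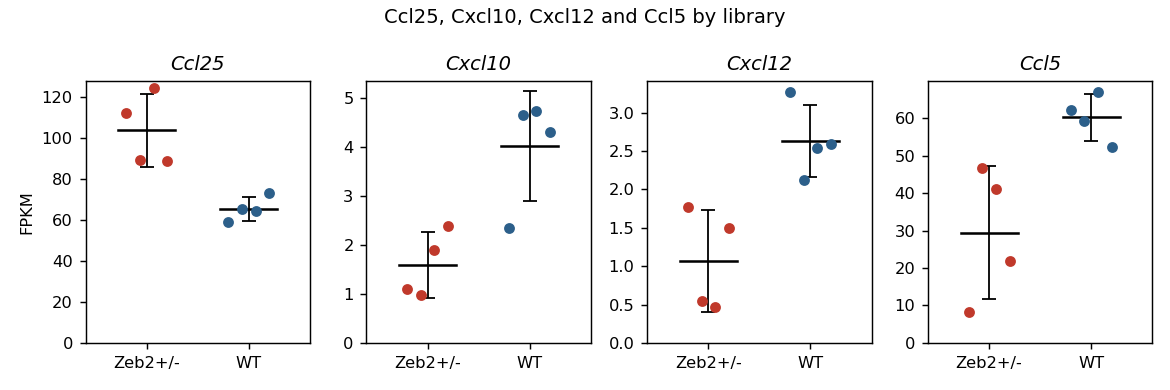
FPKM of Ccl25, Cxcl10, Cxcl12 and Ccl5 in each library (points), with the group mean and SD (bars, n = 4 each); none passed limma's threshold. Ccl25 lies higher in all Zeb2+/- libraries, Ccl5 and Cxcl12 lie lower in all of them, and Cxcl10 overlaps in 1 library of each group.

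Ccr10, the receptor that brings IgA-secreting plasma cells to the mucosa, was called lower. Ccr10 (ENSMUSG00000044052, chromosome 11, 101172997 to 101175443, minus strand, overlapping Cntnap1 on the other strand) had 0.0623, 0.154, 0.0970 and 0.768 FPKM in Zeb2+/- libraries 1 to 4, against 3.19, 2.59, 1.24 and 2.21 FPKM in WT libraries 1 to 4. Zeb2+/- library 4 stood above the other Zeb2+/- libraries and still below the lowest WT library. The means were 0.270 ± 0.334 FPKM in Zeb2+/- and 2.31 ± 0.816 FPKM in WT (SD, n = 4 each), 11.7% of the WT mean (log2 fold change -1.38, SE 0.24, limma adjusted p = 0.0159). Only 24 reads in Zeb2+/- and 238 in WT stood behind it, and the call was lost without WT library 1, 2 or 4 (limma adjusted p = 0.0632, 0.0627 and 0.0588) and without Zeb2+/- libraries 1 and 3 together (0.0877).

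Its epithelial ligand Ccl28 had 3.86, 6.12, 2.87 and 4.14 FPKM in Zeb2+/- libraries, against 11, 4.82, 4.80 and 6.75 FPKM in WT libraries, overlapping (log2 fold change -0.55, limma adjusted p = 0.302). Plasma cell markers were summed beside Ccr10. Of 10 tested, 2 were called lower by limma, Igha and Jchain, the heavy chain and joining chain of secreted IgA, and Igha alone by voom, with summed levels of 175.6 to 589.5 FPKM in Zeb2+/- and 1373 to 2118 FPKM in WT. Igha had 119, 337, 39.3 and 199 FPKM in Zeb2+/- libraries, against 1604, 975, 1206 and 1477 FPKM in WT libraries. The part of plasma cell number in the Ccr10 value was not tested.

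Ccl20, made by the epithelium over lymphoid follicles, had 11.1, 1.99, 6.19 and 5.87 FPKM in Zeb2+/- libraries, against 3.73, 3.50, 1.89 and 2.49 FPKM in WT libraries. Zeb2+/- library 2 lay within the WT range, where the other 3 lay above it (log2 fold change 0.77, SE 0.38, limma adjusted p = 0.316). Its receptor Ccr6, carried by B cells and some T cells, had 6.28, 0.0763, 0.108 and 3.16 FPKM in Zeb2+/- libraries, against 1.43, 1.82, 0.231 and 0.0599 FPKM in WT libraries. Zeb2+/- libraries 1 and 4 were high and libraries 2 and 3 nearly empty.

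Of the 6 tested genes that organise lymphoid tissue, 5 were highest in Zeb2+/- libraries 1 and 4, and 0 of the 6 were called by limma or voom, with Cxcl12 the 1 at an unadjusted p below 0.05 in limma. Cxcl13, which draws B cells into follicles, had 47.7, 0.231, 0 and 18.8 FPKM in Zeb2+/- libraries 1 to 4, against 7.55, 11.6, 1.13 and 1.69 FPKM in WT libraries 1 to 4. Its receptor Cxcr5 had 6.62, 0.0266, 0.0503 and 5.31 FPKM in Zeb2+/- libraries, against 1.17, 2.01, 0.0690 and 0.0834 FPKM in WT libraries. In both genes Zeb2+/- libraries 1 and 4 were the highest of all 8 and WT libraries 1 and 2 came next.

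Ccr7, the receptor that takes naive T cells and dendritic cells into lymphoid organs, had 6.36, 0, 0 and 3.71 FPKM in Zeb2+/- libraries, against 1.84, 1.85, 0.426 and 0.597 FPKM in WT libraries. Ccl21a, a stromal ligand of Ccr7, had 18.9, 0.881, 0.416 and 5.62 FPKM in Zeb2+/- libraries, against 3.30, 0.773, 1.14 and 2.25 FPKM in WT libraries, for the copy on the unplaced scaffold JH584294.1. Cxcr4, a receptor of most leukocytes, had 13.5, 0.294, 0.139 and 8.41 FPKM in Zeb2+/- libraries, against 2.86, 4.50, 1.06 and 1.19 FPKM in WT libraries. All 3 genes were highest in Zeb2+/- libraries 1 and 4 and overlapped between genotypes, with limma adjusted p of 0.692 to 0.902. The log2 fold changes of Cxcl13, Cxcr4 and Ccr7 (0.24, 0.27 and 0.23) turned negative without Zeb2+/- library 1 or 4, and those of Ccl21a and Ccr6 (0.68 and 0.50) without Zeb2+/- library 1. That of Cxcl13 also turned negative without WT library 3 or 4 (-0.17 and -0.060). Ccl19, Ccl21a, Ccl21b, Ccl21c, Ccl27a and Ccl27b belong to a cluster of near-identical copies between which reads may be split, so their values are uncertain.

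**Figure D4:**
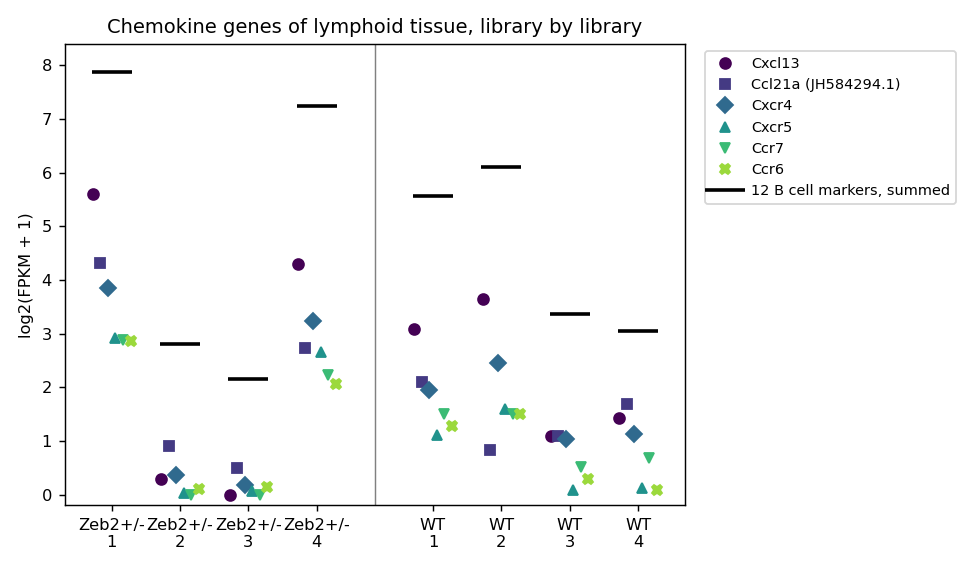
Levels of 6 chemokine genes of lymphoid tissue, as log2(FPKM + 1), in each Zeb2+/- library (left) and each WT library (right), beside the summed level of 12 B cell markers (black bars). Zeb2+/- libraries 1 and 4 are high in all 6 genes and in the B cell sum, and Zeb2+/- libraries 2 and 3 are the lowest in the B cell sum.

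B cell and follicle markers, like Cxcl13, Cxcr5, Ccr7, Ccl21a, Cxcr4 and Ccr6, were highest in Zeb2+/- libraries 1 and 4. Their sum was 234.6, 6.02, 3.47 and 151.4 FPKM in Zeb2+/- libraries 1 to 4, against 46.3, 68.0, 9.37 and 7.33 FPKM in WT libraries 1 to 4, and 0 of 12 tested were called by limma or voom or had an unadjusted p below 0.05. Within WT, Ccl21a did not follow this sum: it was lowest in WT library 2 (0.773 FPKM), where the sum was highest. Whether a piece of lymphoid tissue lay in some samples was not tested. Cxcl12, the stromal ligand of Cxcr4, was also higher in Zeb2+/- libraries 1 and 4 than in libraries 2 and 3, but all 4 lay below WT. It had 1.77, 0.541, 0.471 and 1.5 FPKM in Zeb2+/- libraries, against 3.27, 2.12, 2.54 and 2.59 FPKM in WT libraries, without overlap (log2 fold change -0.86, SE 0.23, limma adjusted p = 0.0902, and 0.0324 without Zeb2+/- library 1).

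Summed over all ligands, the level was 246.2, 212.3, 253.2 and 206.0 FPKM in Zeb2+/- libraries 1 to 4, against 248.7, 239.5, 265.3 and 261.6 FPKM in WT libraries 1 to 4. Ccl25 alone was 45.7%, 42.1%, 49.2% and 43.1% of that sum in Zeb2+/- libraries, against 23.8%, 27.2%, 24.2% and 27.9% in WT libraries. Without Ccl25, the ligand sum was 117.1 to 133.8 FPKM in Zeb2+/- and 174.2 to 201.1 FPKM in WT. So the ligand totals overlapped between genotypes, whereas the sums without Ccl25 did not. Ccl25 was the 1 tested member with every Zeb2+/- library above every WT library, so leaving it out widens the gap. Within the remaining sums Ccl5, which was not called, had means of 29.5 FPKM in Zeb2+/- and 60.2 FPKM in WT.

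Receptors summed to 37.7, 3.75, 2.22 and 25.3 FPKM in Zeb2+/- libraries 1 to 4, against 21.2, 22.3, 11.8 and 14.4 FPKM in WT libraries 1 to 4. Cxcr4, Cxcr5, Ccr7 and Ccr6 together made up 86.9%, 10.6%, 13.4% and 81.4% of the receptor sum in Zeb2+/- libraries, against 34.5%, 45.8%, 15.1% and 13.4% in WT libraries. The most abundant receptor was Cxcr4 in Zeb2+/- libraries 1 and 4, Cxcr6 in Zeb2+/- libraries 2 and 3, Cxcr4 in WT library 2, and Ccr1 in WT libraries 1, 3 and 4.

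**Figure D5:**
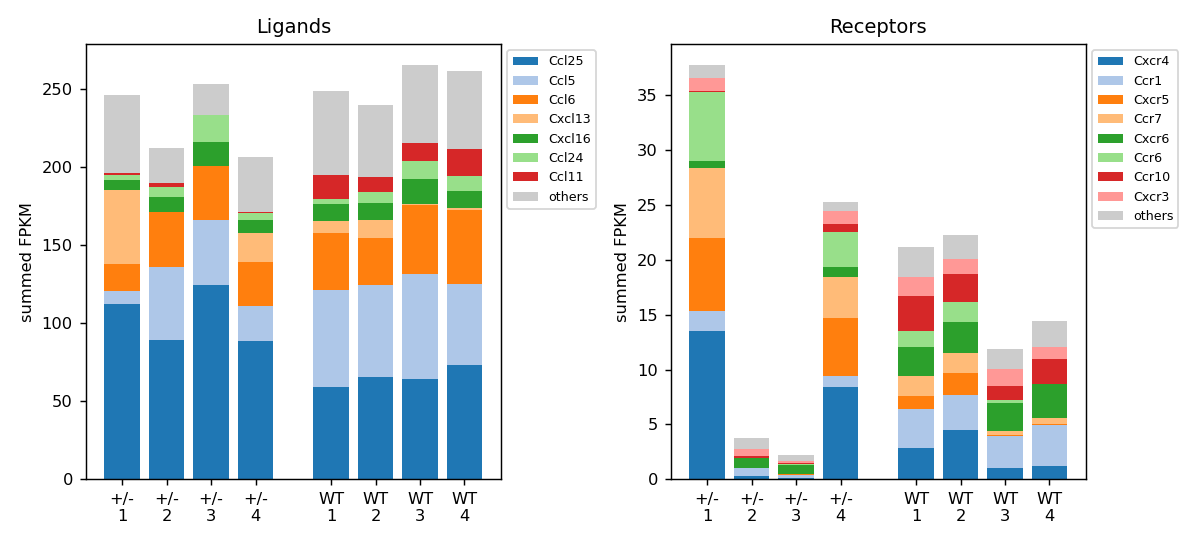
Summed FPKM of the chemokine ligands (left) and receptors (right) in each library, Zeb2+/- (+/-) before WT, stacked by gene. Ccl25 fills 42.1% to 49.2% of the ligand bar in Zeb2+/- and 23.8% to 27.9% in WT, and the receptor bar is tallest in Zeb2+/- libraries 1 and 4 and shortest in Zeb2+/- libraries 2 and 3.

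Of the 33 entries below the minimum level, 27 had reads and 6 had none in any library (both entries of Ccl19, both of Ccl21b, Cxcl17 and 1 of Ccl27a). In the fit of all genes limma called 0 of the 27, beside 1.14% of all genes fitted, 8 had an unadjusted p below 0.05, beside 11.8% of all, and voom called 2 lower, Ccl8 and Ccr3, beside 1.2% of all. In 6 of the 27 every Zeb2+/- library lay below every WT library, among them Ccr9, Ccl8, Ccr2, Ccr3 and the neutrophil ligand Cxcl5, beside 4.82% of all genes fitted. None of the 7 neutrophil chemokine genes reached the minimum, and 10 of the 27 had 5 reads or fewer over all 8 libraries, so differences in those 10 were not detectable at this depth.

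Of 7 tested atypical receptors and chemokines outside the naming rule, 2 were called lower by limma (beside 2.77% of all tested genes), 1 of them (Ackr3) also by voom. An unadjusted p below 0.05 in limma was reached by 5, beside 18.9% of all tested genes. The median log2 fold change of the 7 was -0.74. Ackr3, a scavenging receptor for Cxcl12, had 0.321, 0.661, 0.375 and 0.489 FPKM in Zeb2+/- libraries, against 2.48, 1.78, 2.29 and 2.76 FPKM in WT libraries (log2 fold change -1.18, SE 0.14, limma adjusted p = 0.00278). Cx3cr1, the fractalkine receptor of intestinal macrophages, had 0.453, 0.373, 0.0929 and 0.865 FPKM in Zeb2+/- libraries, against 2.61, 2.39, 2.06 and 1.85 FPKM in WT libraries (log2 fold change -1.18, SE 0.18, limma adjusted p = 0.00905). Neither overlapped between genotypes. Its ligand Cx3cl1 was between 18.9 and 45.1 FPKM in Zeb2+/- and between 27.4 and 35.9 FPKM in WT (limma adjusted p = 0.929).

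Of 8 tested peptidases that trim chemokines, 2 were called lower, the gelatinases Mmp2 and Mmp9. Mmp9 had 0.760, 1.63, 0.237 and 1.45 FPKM in Zeb2+/- libraries, against 9.50, 7.99, 8.86 and 9.08 FPKM in WT libraries (log2 fold change -2.35, limma adjusted p = 0.000990). Among 25 tested signalling genes downstream of the receptors, such as Arrb1, Grk5 and Rgs1, limma and voom called 0 and 1 had an unadjusted p below 0.05. Among 12 tested inducing cytokines and their receptors, limma and voom called 0 and 2 had an unadjusted p below 0.05, Tnfrsf1b and Il17rc. Of 14 tested adhesion genes of lymphocyte entry, Itgae alone was called, lower, and 4 had an unadjusted p below 0.05.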

How the data were processed

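Polyadenylated duodenal RNA from Zeb2+/- and WT mice was made into directional libraries with dUTP, per the labels' protocols. The submitters' processing notes name the build GRCm38 (mm10) and the tools featureCounts 1.5.0-p3 and HISAT2 2.0.5. Strand setting, annotation release and filters: not given in the sources used here. Deposited values are FPKM, scaled by the authors. FPKM times the deposited gene length gave whole reads for 100% of values (tolerance 0.01 read), and the library total implied by the authors' scaling was 0.733 to 1.16 times the sum of these reads, a factor of unknown origin. Columns of other samples: 0.

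Values were tested as log2(FPKM + 1) with limma 3.58.1 in R 4.3.3 (trend and robust, two-sided), with genotype as the only term, for genes with a mean of at least 1 FPKM. Genes below it were fitted with all genes above 0. This scale understates the change of low genes. The fit was tested on simulated data. Alternatives were a pseudocount of 0.1, no filter, TPM, median of ratios, voom on rebuilt reads, the replicate number as a block, and leaving out libraries. No 2 libraries were as alike as sampling noise allows.

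Named are all members with a mean of at least 1 FPKM, members below it past a threshold, and list genes past the threshold or, failing that, of smallest p. Ccr9, Ccr2, Cxcl5, Ccl17, Ccl2, Ccl7, Ccl12, Siglecf, Prg2, Cd8a, Epx, S100a9, Mpo and Cx3cl1 were chosen after their values were seen. The members, lists and the removal of Zeb2+/- libraries 1 and 3 together were chosen with earlier results of these data known. Reads, floors and bounds cover counting error only. Of the 58 members, 51 were found in GENCODE M21, with the same start and end. The values of 1 member are not reported here.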

Additional observations from a re-analysis of the deposited data

Results flagged for a closer look

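Among 50 groups of 4 libraries, 2 held a value whose gap to its nearest neighbour was over 0.829 of the group's range, and chance gives about 1 in 20. Ccr10 in Zeb2+/- library 4 was the highest of its group at 0.768 FPKM (gap 0.870 of the range). Cxcl16 in WT library 3 was the highest of its group at 15.9 FPKM (gap 0.902 of the range).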

How the results depend on the processing

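Over 15 alternatives the number of chemokine genes called was 4 to 7, all lower in Zeb2+/- (4 without WT library 2 or 4, 7 without Zeb2+/- library 1). Ccl11, Cxcl14, Cxcl9 and Cxcr6 were called in all 15 (adjusted p up to 0.0235, 0.00542, 0.0467 and 0.0173). Ccr1 was lost with a pseudocount of 0.1 (0.0577), TPM (0.0672), voom (0.0889) and without Zeb2+/- library 2 (0.0584) or WT library 1 (0.0776), 2 (0.0632) or 4 (0.0760). With the replicate block 6 chemokine genes and 299 of all genes were called. Deviations of same-numbered libraries correlated at 0.236, -0.160, 0.327 and -0.189. The values 0.327 and 0.236 were the highest of all pairs of a Zeb2+/- with a WT library, whereas -0.160 and -0.189 were negative. With signs this mixed, the correlations cannot decide whether the numbers pair the samples. The count over all genes, 395, was 202 with voom and 218 to 487 without 1 library (218, 253 and 225 without WT library 1, 2 and 4). TPM, which moved the median of all genes to -0.099, called 15 higher and 314 lower, against 57 and 338. Of Zeb2 and the low members, 0 were called, 1 with a pseudocount of 0.1 (Ccl8), 3 with voom (Ccl8, Ccr3 and Zeb2, Zeb2 at 0.0350) and 0 to 1 without 1 library. The log2 fold change of 7 of 28 genes changed sign, none of them called; the cause was not tested. Without 1 library the ranges were -0.78 to 1.09 for Cxcl13, -0.38 to 0.84 for Cxcr4, -0.31 to 0.65 for Ccr7, -0.020 to 0.90 for Ccr6, -0.052 to 1.22 for Ccl21a and -0.55 to 0.16 for Ccl24. With a pseudocount of 0.1, Cxcl13 was -0.68, Cxcr4 -0.23 and Ccr7 -0.63, and with voom they were -1.11, -0.39 and -1.59. Cxcl13 was also -0.062 with TPM and -0.014 without Zeb2+/- libraries 1 and 3 together, where Ccl4 was 0.058. Reads limit the low genes: Ccr10 and Ccl11 rest on 24 and 59 Zeb2+/- reads.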
